A study of Oryza sativa with 2 samples.

Results

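CAT-A (LOC4328073), a catalase, and GLO4 (LOC4343908), a glycolate oxidase, are rice genes for enzymes on the 2 sides of hydrogen peroxide turnover in the peroxisome. They were followed on a pair of two-colour oligonucleotide arrays that set RNA of jasmonic acid-treated seedlings (Oryza sativa) against RNA of control seedlings. They are 2 of the 15798 genes that the annotation ties to a spot with a single gene, and each has 1 such spot. The pair was chosen by its ratios on these same arrays, so those ratios are described here without a test. Which spot belongs to which gene rests on a rearranged spot order that was found from these data and that no source states.

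The plants were grown on MS medium for 7 days, and the dose in the labels is 5 µM jasmonic acid. Treated RNA was labelled with Cy5 and control RNA with Cy3 on array 1, and the other way round on array 2. The labels give a single replicate number throughout, so the arrays count as 1 replicate. No spread between plants could be measured, and no p-value was computed. The sample titles name shoots and the design text whole seedlings, and the labels give the exposure once as 7 days and once as an exposure of seedlings of that age.

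Catalase breaks hydrogen peroxide down to water and oxygen. Glycolate oxidase turns glycolate into glyoxylate and releases hydrogen peroxide in the same organelle, as a step of photorespiration, the pathway that salvages the product of oxygen fixation by Rubisco. In leaves, glycolate oxidase is thus a source of the peroxide that catalase removes. Jasmonic acid is a hormone of wounding and defence whose own synthesis ends in the peroxisome.

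Each deposited value is the log10 of a ratio between the channels, shown here on the log2 scale. The ratios are those of whole numbers, and the whole numbers themselves were recovered as the simplest fraction that gives each value. They are terms of a reduced fraction, so each is a lower bound on the signal of its channel. Spot brightness below is the log2 geometric mean of these terms, averaged over the arrays unless one is named. For CAT-A the ratio on array 1 was 10835 to 2946, a log2 ratio of 1.88. On array 2 it was 1168 to 3633, a log2 ratio of −1.64. The larger term was the numerator on array 1 and the denominator on array 2. For GLO4 the ratio was 185 to 81 on array 1, a log2 ratio of 1.19, and 157 to 350 on array 2, a log2 ratio of −1.16. GLO4 thus changed sides between the arrays in the same way as CAT-A, on a dimmer spot.

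**Figure D1:**
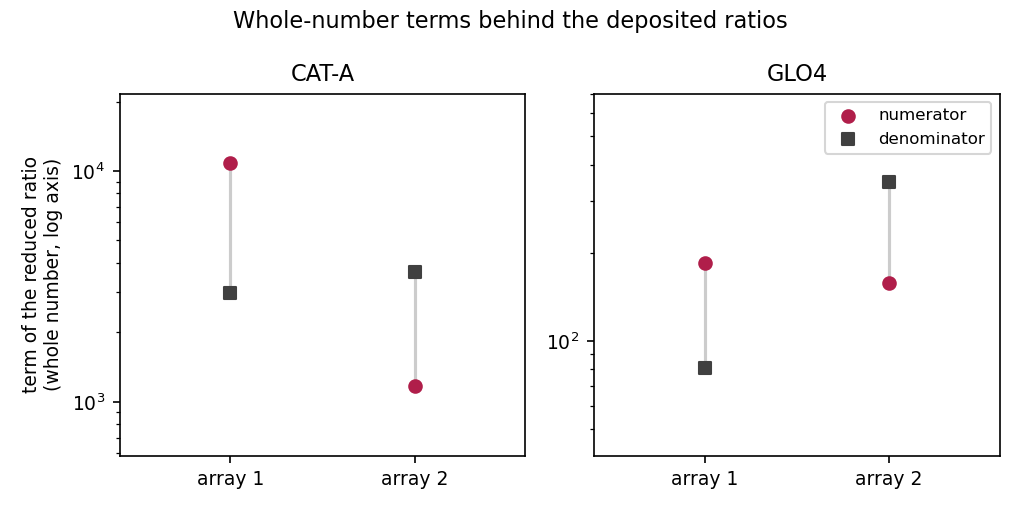
Numerator (circles) and denominator (squares) of the reduced whole-number ratio of CAT-A and GLO4 on each array, on a log axis. For both genes the numerator is the larger term on array 1 and the smaller on array 2, from 10835 over 2946 to 1168 over 3633 for CAT-A.

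No source names the numerator, and what these ratios say of the treatment depends on it. If it is Cy5 on both arrays, CAT-A was 3.68-fold higher in treated seedlings on array 1 and 3.11-fold higher on array 2, and GLO4 was 2.28-fold and 2.23-fold higher. If it is Cy3 on both arrays, treated seedlings had 0.272 and 0.322 of the control signal for CAT-A, and 0.438 and 0.449 for GLO4. If the columns instead give treated over control on both arrays, the arrays disagree for both genes, and their mean ratio is 1.09 for CAT-A and 1.01 for GLO4. Over all 22575 spots the arrays correlated at r = 0.54, and in the 10% of spots that were brightest at r = −0.72. These correlations are across spots, which share RNA, dyes and slide, and are given as a description. The direction is therefore left unsettled, and a gene is said to lie on the array 1 side when its log2 ratio reached 1 or more on array 1 and −1 or less on array 2, a 2-fold difference each way. The array 2 side is the reverse. The swap mean, taken after the sign of array 2 was turned, averages both arrays and measures the size in log2 units, and its sign turns with the numerator.

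The swap mean was 1.76 for CAT-A, a size of 3.38-fold, and 1.17 for GLO4, a size of 2.26-fold. Under the spot numbers as deposited, other spots carry these names, and the swap means were −0.060 and −0.143. On the log2 scale the 2 arrays as deposited differed in size by 0.24 for CAT-A and by 0.03 for GLO4. They differed more with each array's median set to 0, at 2.18 and −1.32 for CAT-A and 1.49 and −0.84 for GLO4. Both genes lay on the array 1 side, where 79 of 15798 genes lay in all (0.500%). The array 2 side held 26 genes (0.165%). Among the 25% of genes that were brightest these shares were 1.24% and 0.380%. Since the pair was picked for this side, nothing is read from its count against these shares. Ordered by swap mean, CAT-A was number 29 and GLO4 number 70 among the 79. The smaller of its 2 log2 sizes exceeded the 2-fold line by 0.64 for CAT-A and by 0.16 for GLO4. The named genes just inside that line were Cht4, with 1.01 on array 1 and −1.103 on array 2, JAZ7 and 4CL-3. Just outside it were AOS4, with 0.98 and −1.41, PORA and AT15.

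CAT-A was one of the brightest spots on the arrays. Its brightness of 11.74 lay above 99.65% of all spots, and it was number 3 in brightness among the 79 genes of its side, whose median was 7.29. GLO4 had a brightness of 7.40, above 86.3% of spots. CAT-A was brighter on array 1, with 12.46, than on array 2, with 11.01. Of the 8 spots of catalases and glycolate oxidases it was the only one brighter on array 1, as were 19.3% of all spots and 61 of the 500 brightest. A common factor in the array 2 terms would cancel, and its part in this was not tested.

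The other members of both enzyme families that were matched by name gave other values. A further rice catalase has no matching name in the gene table, so it is not among these members. As the pair was chosen for its ratios, a gap between it and these members is no finding. CAT-B (LOC4342124), the other catalase named in the gene table, had a ratio of 34 to 35 on array 1, a log2 ratio of −0.04, and of 236 to 237 on array 2, a log2 ratio of −0.01. Its swap mean of −0.02 was 1.78 below that of CAT-A. Both of its ratios were close to 1, on a spot whose brightness of 6.50 was above 72.8% of spots.

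GLO1 (LOC4334349), another glycolate oxidase, was measured by 2 spots. The brighter had 2161 to 2447 on array 1 and 6098 to 5213 on array 2, log2 ratios of −0.18 and 0.23. The dimmer had −0.19 and −0.37, with ratios below 1 on both arrays, so the swap means of −0.20 and 0.09 differed in sign. The brighter GLO1 spot, with a brightness of 11.81, changed sides the opposite way by a small amount.

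GLO3 (LOC4337048) had log2 ratios of −0.35 and 0.09, a swap mean of −0.22. GLO5 (LOC4342420) had the values farthest from those of GLO4. Its brighter spot had 473 to 721 on array 1 and 3300 to 2099 on array 2, log2 ratios of −0.61 and 0.65. Its dimmer spot had −0.46 and 0.19, and both spots changed sides in the way opposite to GLO4. The mean of its spots gave a swap mean of −0.48, which was 1.65 below that of GLO4. None of GLO1, GLO3 and GLO5 passed 2-fold on either array, and nothing is read from this. Of all 15798 genes, 90 reached a log2 ratio of 1 on array 1, and 1127 fell to −1 or lower. For array 2 these counts were 36 and 1382. The gaps from GLO4 were 1.23 to GLO1 and 1.39 to GLO3. GLO4 thus stood on one side of the family and GLO5 on the other, whichever dye is the numerator; with no replicate, these gaps were not tested, and if the columns are treated over control they measure dye effects of the spots.

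**Figure D2:**
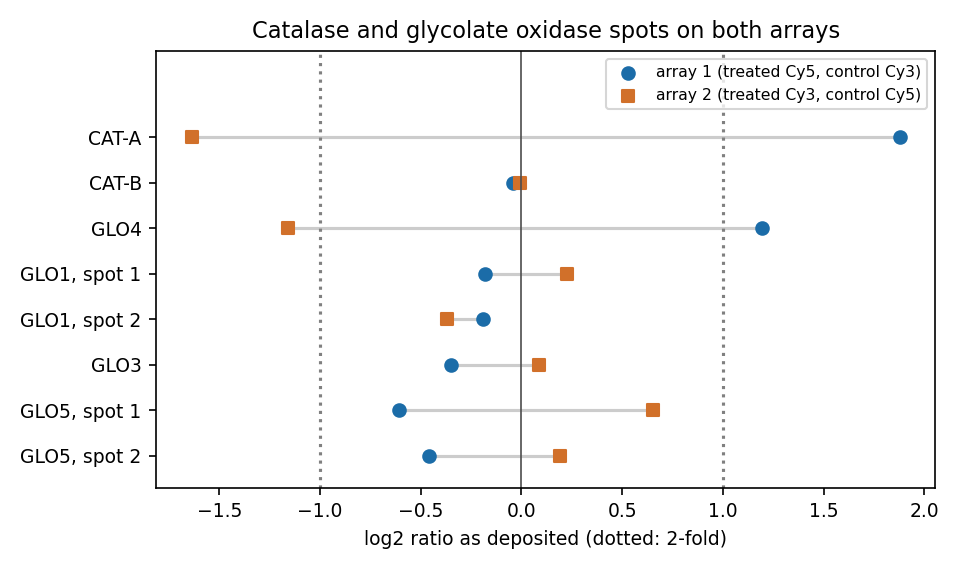
Deposited log2 ratio of each spot of the 2 catalases and 4 glycolate oxidases on array 1 (circles) and array 2 (squares), with 2-fold as dotted lines. CAT-A and GLO4 run from above 1 on array 1 to below −1 on array 2, while both GLO5 spots run the other way and CAT-B stays near 0.

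**Figure D3:**
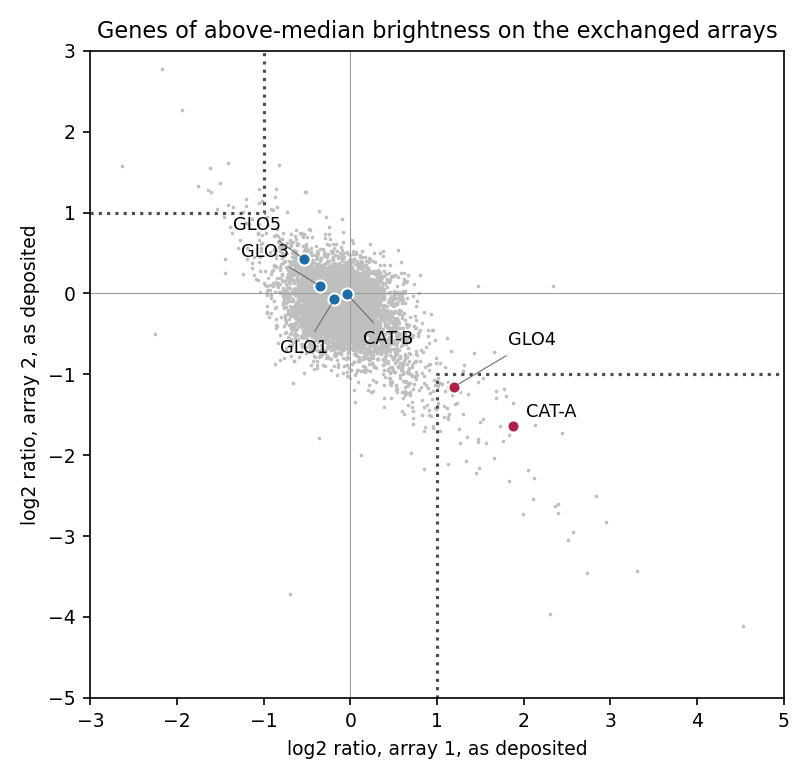
Log2 ratio on array 1 against array 2 for genes of above-median brightness (grey), with both family groups marked and the regions of the array 1 side (lower right) and array 2 side (upper left) outlined by dotted lines. CAT-A and GLO4 lie inside the lower right region, and CAT-B, GLO1, GLO3 and GLO5 outside both outlined regions.

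The ratios of both members were then set beside the spots nearest in brightness, the spots around them on the slide and neighbouring genes. The 500 spots nearest to CAT-A in brightness ran from 9.52 to 13.78, a wide range, as few spots are as bright as CAT-A. Their median log2 ratio was −0.08 on array 1 and 0.08 on array 2. The scaled median absolute deviation of their plain mean of the arrays was 0.17. The plain mean of CAT-A was 0.12, within that spread of their median of −0.02. The swap means of these spots had a median of −0.09 and a wider scaled median absolute deviation of 0.34. Of these 500 spots 14 lay on the side of CAT-A and 2 on the opposite one, and 6 had a swap mean at least as high as that of CAT-A. The 500 spots nearest to GLO4 ran from 7.30 to 7.51 in brightness. Their medians were −0.08 and −0.04, 3 lay on each side, and 3 had a swap mean at least that of GLO4. The plain mean of GLO4 was 0.02, against a median of −0.08 and a spread of 0.14. The swap means of its 500 spots had a median of −0.01 and a spread of 0.16.

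In the 120 spots around CAT-A in the grid, the median log2 ratios were −0.32 and −0.35, none lay on its side and 1 on the opposite one. GLO4 lies near the edge of the grid, and of the 76 spots around it 1 lay on the array 1 side, with a swap mean of 1.98, larger than that of GLO4, at a distance of 4.47 spots. The medians there were −0.29 and −0.44. As the pair was chosen for its ratios, a difference from the spots around it is no finding, and the part of position on the slide was not tested. In gene order, 6 of the 10 genes within 5 places of CAT-A were measured, with swap means from −0.36 to 0.16. For GLO4 8 of 10 were measured, from −0.53 to 0.20. None of these neighbours lay on either side, where 0.500% (array 1) and 0.165% (array 2) of all genes lay.

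The deposited ratios are not centred: their median over all spots was −0.30 on array 1 and −0.32 on array 2. With each median set to 0, CAT-A had log2 ratios of 2.18 and −1.32 and stayed on the array 1 side. GLO4 then had 1.49 and −0.84 and no longer passed 2-fold on array 2. With the trend of the ratios along brightness removed, both genes were on that side, CAT-A with 1.95 and −1.70 and GLO4 with 1.27 and −1.11. With the median of the spots around set to 0, GLO4 had 1.479 and −0.713 and again missed 2-fold on array 2, and CAT-A had 2.20 and −1.28. The swap mean of GLO4 was between 1.096 and 1.191 under these centrings and that of CAT-A between 1.74 and 1.83.

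**Figure D4:**
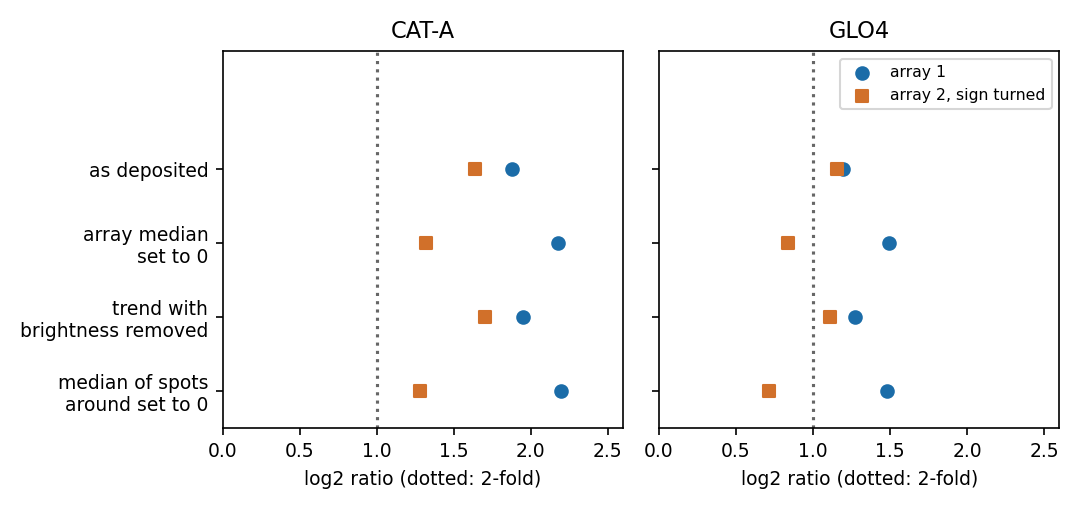
Log2 ratio on array 1 and on array 2 with its sign turned, for CAT-A and GLO4, as deposited and under 3 ways of centring; the dotted line marks 2-fold. CAT-A stays past the line on both arrays throughout, and GLO4 falls short on array 2 in 2 of the 3.

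The other genes of peroxide and peroxisome metabolism were matched by symbol alone, so some members may not belong to the group they are counted in. Enzymes with no matching name are missing, among them serine hydroxymethyltransferase, hydroxypyruvate reductase and acyl-CoA oxidase. None of the matched genes lay on either side, where 0.500% (array 1) and 0.165% (array 2) of all genes lay. Nothing is read from this count. The median swap mean of all genes was 0.01, and the central 95% of genes ran from −0.46 to 0.62.

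Photorespiration beyond glycolate oxidase was represented by GDCSH, the H protein of the glycine decarboxylase complex, which carries the aminomethyl group between its subunits. Its ratio was 2237 to 3390 on array 1 and 919 to 821 on array 2, log2 ratios of −0.60 and 0.16 and a swap mean of −0.38. Its sign was that of GLO3 and GLO5, opposite to GLO4.

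The enzymes that remove peroxide and superoxide outside the catalase family showed no gene past 2-fold, and nothing is read from this. Besides the 79 and 26 genes that changed sides, 609 of all 15798 had ratios lower by 2-fold or more on both arrays. Of 20 named genes for these enzymes, 17 were measured. Their swap means had a median of 0.01 and a range from −0.37 to 0.26, and 9 exceeded the all-gene median. The farthest from 0 were MDAR2, a monodehydroascorbate reductase, at −0.37, APX1, an ascorbate peroxidase that spends ascorbate to reduce peroxide, at −0.35, and sodCp, a superoxide dismutase, at −0.33. APX1 had a ratio of 641 to 959 on array 1 and 208 to 191 on array 2. CAT-A, with its swap mean of 1.76, lay beyond the whole range of these 17 genes. It was chosen for its ratios, so this is no finding.

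Among other possible makers of peroxide, 10 of 12 genes were measured, with a median of 0.04. Most are germin-like proteins, some of which act as superoxide dismutases or oxalate oxidases in cereals. GER2 had 41 to 24 on array 1 and 117 to 199 on array 2, log2 ratios of 0.77 and −0.77 and a swap mean of 0.77, on the same side of 0 as CAT-A and GLO4 but below 2-fold. RBOHB, a respiratory burst oxidase that makes superoxide at the plasma membrane, had a swap mean of 0.40, with 0.38 and 0.41 for its 2 spots. GER8 had 0.22.

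Of the PEX11 proteins, which take part in the division and growth in number of peroxisomes, 3 were measured. PEX11-4 had 251 to 382 on array 1 and 994 to 649 on array 2, log2 ratios of −0.61 and 0.61 and a swap mean of −0.61. It lay below the central 95% of genes, as GLO5 did, and on the side opposite to CAT-A and GLO4. PEX11-1 had −0.18, and PEX11-5, also named GLL, 0.01 from 2 spots of opposite sign. The multifunctional protein MFP of fatty acid beta-oxidation had 0.18.

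**Figure D5:**
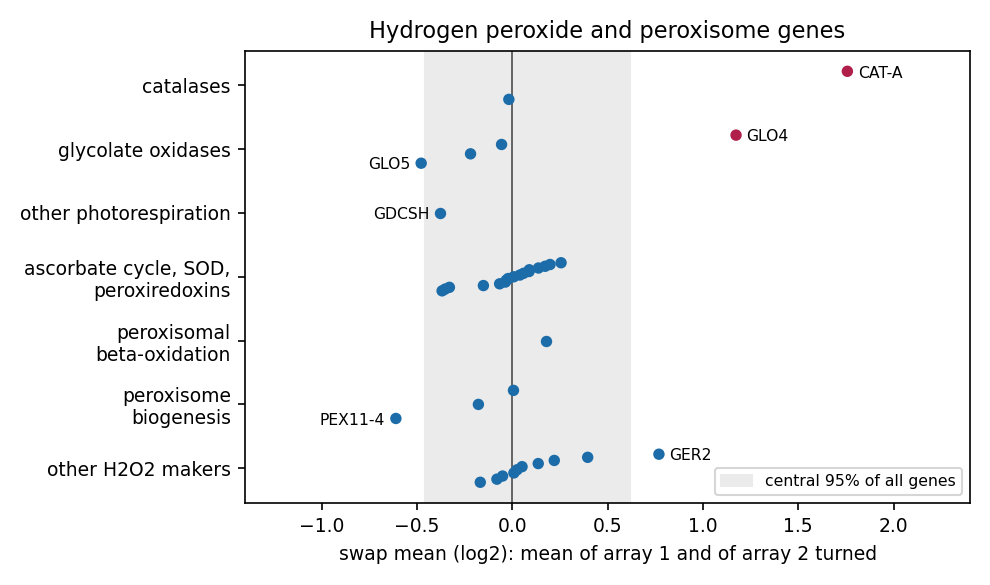
Swap mean (log2) of each measured gene in 7 lists of peroxide and peroxisome genes, with CAT-A and GLO4 in red, the others in blue and the central 95% of all genes as a grey band. CAT-A at 1.76 and GLO4 at 1.17, which were chosen for their ratios, lie farthest right. GER2 is the other gene right of the band, and GLO5 and PEX11-4 lie left of it.

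The named genes whose pair of ratios was nearest to each member were found by distance in the plane of the 2 log2 ratios, that is over 2 arrays only. Nearest to GLO4 were the acyltransferase AT4 at a distance of 0.06, the coenzyme A ligase 4CL-3 at 0.11, the chitinase Cht4 at 0.19, the lectin salT, also named ML, at 0.21 and PORA, an enzyme of chlorophyll synthesis, at 0.22. Nearest to CAT-A were JAZ8, a repressor of jasmonate responses, at 0.68, salT at 0.73, AT4 at 0.79, GLO4 itself at 0.84 and JAZ7 at 0.85. CAT-A had no named gene within 0.5 of it, whereas all 5 nearest to GLO4 lay within 0.25.

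Ratios hold no level, and brightness differs with the probe, so neither shows which tissue the RNA came from. The 6 measured green shoot markers, GLO1 among them, had a brightness from 9.48 to 14.69, against a median of 5.47 over all genes. The 8 root markers ranged from 2.74 to 8.98, the highest being the silicon transporter Lsi1, and the 4 seed storage and aleurone markers from 1.73 to 3.30. No marker lay on either side, where 0.500% (array 1) and 0.165% (array 2) of all genes lay. Some markers had ratios that went the way of CAT-A and GLO4. The green shoot markers had swap means from −0.52 to 1.05, with PORA highest and the Rubisco activase gene RA, also named rca, lowest. The light-harvesting protein gene CAB2R had 0.69. Its log2 ratios were 1.47 on array 1 and 0.09 on array 2, so it did not change sides between the arrays. The root markers ran from −0.14 to 1.004, and the seed storage and aleurone markers from −0.68 to 0.22. The highest root marker was NAS2, a nicotianamine synthase, with log2 ratios of 0.49 on array 1 and −1.51 on array 2. The part of these tissues in the ratios of CAT-A and GLO4 was not tested. In such RNA from whole organs, fewer cells of a type and less RNA per cell cannot be told apart.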

How the data were processed

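RNA of treated and control rice seedlings was compared on 2 dye-swapped arrays. Per the labels' design text, images were read with a GenePix scanner and GenePix 4000 software, and the authors normalized with GeneSpring version 4. How background was handled, and any filter, is not stated there. The deposited values are log10 ratios of the 2 channels for 22575 spots, none missing, with no stated numerator; their medians are −0.0902 and −0.0954.

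From these, log2 ratios, whole-number terms (simplest fraction within 6e-10 on the log10 scale, tested on simulated data) and brightness were computed with Python 3.11.15, NumPy 2.4.6 and pandas 2.3.3. The precision is limited by the number of arrays.

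Spot numbers as deposited do not pair with the annotation. Names rest on a rearranged grid of 215 lines of 105 spots that no source states, found from these data. It puts 0 of 228 spots on an annotated feature, these being spots of brightness over 4.5 whose log2 ratio was under −2.2 on each array. As the grid was found from these data, this count is no independent support for it. Names came from the RefSeq table of assembly ASM3414082v1 for all 15798 genes on 17839 features with 1 gene, of which 2090 have a true symbol besides their locus and clone identifiers. No build is named for the arrays, so no coordinates are printed. Probes of a gene were averaged on each array.

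Members and lists were chosen with earlier results of these data known. Lists were planned by symbol or description, but the table holds symbols and synonyms only. Genes named are the members, both enzyme families, the 3 largest in size of each other list (fewer where fewer were measured), and the 5 named genes nearest in pattern to each member. The genes beside the 2-fold line and the markers Lsi1, PORA, CAB2R, RA and NAS2 were added after their values were seen. Alternatives were 3 ways of centring, each array alone, the plain mean, names by spot number and other thresholds.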

Additional observations from a re-analysis of the deposited data

How the results depend on the processing

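There was no biological replicate, so shifts were set against the standard deviation of the 2 arrays as deposited (0.17 for CAT-A, 0.02 for GLO4). As deposited, the arrays were closer in size for both genes than with each median set to 0. Under the 3 ways of centring the swap mean of CAT-A was 1.74 to 1.83, within that limit. That of GLO4 was within it except when centred on the spots around, where it was 1.096. An array alone lies within this limit by construction and says nothing of stability: it gave 1.88 and 1.64 for CAT-A and 1.19 and 1.16 for GLO4. Without turning array 2 the means were 0.121 and 0.0175, by construction the reading in which the columns are treated over control. With names by spot number the members' features gave swap means of −0.060 for CAT-A and −0.143 for GLO4, so every value above rests on the rearranged grid. On the array 1 side, 79 genes turned into 225 for a 1.5-fold limit, 25 for a 3-fold limit and 1382 with array 2 alone, and were 82 to 96 under the other alternatives, centring and array 1 alone included. For the array 2 side, the 26 genes were 82 for the lower limit, 4 for the higher and 1127 with array 1 alone, and were 22 to 36 under the others. Ratios of each probe alone gave no alternative for the members, which have 1 probe each. No paired analysis was possible because the labels give both arrays the same replicate number, so they count as 1 replicate.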
